A study of Mus musculus with 18 samples.

Results

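Myc and the proteins that share its partner Max were measured here in 6 mouse pluripotent stem cell lines. The 8 genes Myc, Mycn, Mycl, Max, Mga, Mxd3, Mxi1 and Mnt were represented by the probe sets that the platform annotation ties to 1 of these symbols alone. This gave 20 of the 45037 non-control probe sets: 1 each for Myc and Max, 2 each for Mxi1 and Mnt, 3 each for Mycn, Mycl and Mxd3, and 5 for Mga. Total RNA had been hybridised to 18 Affymetrix expression arrays, 3 per line. The 4 induced pluripotent stem (iPS) lines, cells returned from fibroblasts to a pluripotent state, were IP20D-3, IP36D-3 and IP14D-1 of the strain label B6 x D2 F1 and IP14D-101 of B6 x 129S2 F1. The 2 embryonic stem (ES) lines were R1 of 129X1/SvJ x 129S1 F1 and ESC2 of B6 x D2 F1. All lines were grown with leukaemia inhibitory factor on fibroblast feeders stopped from dividing with mitomycin C, with either fetal serum or serum replacement, with no record here of the medium of each line. The factors used for reprogramming and the passage numbers are not given in the sources used here, and each name is 1 line, so a difference between cell types rests on 4 iPS lines and 2 ES lines. The fibroblasts from which the iPS lines came were not analysed here. The 3 replicates of each line are called biological, but separate dishes or passages are not mentioned, so p-values measure the spread between these samples, which may be technical.

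Myc, Mycn and Mycl are transcription factors that bind DNA only as pairs with Max, chiefly at the E-box CACGTG, and raise the output of genes for growth, ribosome production and division. Mxd3, Mxi1 and Mnt also pair with Max, recruit Sin3 corepressors and compete for the same sites. Mga, the largest protein of the network, pairs with Max inside the Polycomb complex PRC1.6, which in mouse ES cells keeps meiotic and other germline genes silent. In mouse ES cells, Myc activity is known to help maintain self-renewal downstream of leukaemia inhibitory factor, and Myc and Mycn can stand in for each other.

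Promoter sequences are shown first for the members whose windows carry the E-box, the letters a Max pair reads, and for 2 germline genes with it, Stag3 and Sycp3, picked for their differences in IP20D-3 given below. RefSeq windows of build GRCm38.p6, 300 bases from 250 before to 50 after a transcription start, were found for 7 of the 8 members, and Myc was the member without one. The motif CACGTG, which reads the same on both strands and was counted on either, occurred in the windows of 2 of these 7 members, Max and Mnt. It occurred in windows of 8.1% of the 27025 genes with one and in 7.2% of all 32851 windows. Among the 18 germline genes of a list repressed by PRC1.6 that had a window, 10 held the motif, or 55.6%. Smc1b and Sohlh2, germline genes also higher in IP20D-3 as given below, had no E-box in their windows. The windows of Max (chr12:76962199-76962498, minus strand), Mnt (chr11:74830674-74830973, plus strand), Stag3 (chr5:138280259-138280558, plus strand) and Sycp3 (chr10:88459337-88459636, plus strand) follow 5′ to 3′, with the E-box in capitals.
Max: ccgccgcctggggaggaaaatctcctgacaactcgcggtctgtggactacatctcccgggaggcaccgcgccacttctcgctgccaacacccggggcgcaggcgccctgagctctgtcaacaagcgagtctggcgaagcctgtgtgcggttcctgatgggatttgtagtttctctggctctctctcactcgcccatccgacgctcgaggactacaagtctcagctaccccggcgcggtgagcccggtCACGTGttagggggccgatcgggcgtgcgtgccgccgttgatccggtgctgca
Mnt: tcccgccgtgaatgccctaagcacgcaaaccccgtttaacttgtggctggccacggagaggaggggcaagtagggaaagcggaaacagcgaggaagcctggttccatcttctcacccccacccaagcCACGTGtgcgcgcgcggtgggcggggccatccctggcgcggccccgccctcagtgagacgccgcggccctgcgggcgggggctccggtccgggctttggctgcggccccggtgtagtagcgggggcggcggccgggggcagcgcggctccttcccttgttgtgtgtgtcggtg
Stag3: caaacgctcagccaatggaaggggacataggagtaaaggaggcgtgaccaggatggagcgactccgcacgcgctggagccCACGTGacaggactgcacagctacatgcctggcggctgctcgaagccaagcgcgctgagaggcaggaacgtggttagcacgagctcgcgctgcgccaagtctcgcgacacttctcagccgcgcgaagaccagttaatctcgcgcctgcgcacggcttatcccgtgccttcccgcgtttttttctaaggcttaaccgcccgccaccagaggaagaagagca
Sycp3: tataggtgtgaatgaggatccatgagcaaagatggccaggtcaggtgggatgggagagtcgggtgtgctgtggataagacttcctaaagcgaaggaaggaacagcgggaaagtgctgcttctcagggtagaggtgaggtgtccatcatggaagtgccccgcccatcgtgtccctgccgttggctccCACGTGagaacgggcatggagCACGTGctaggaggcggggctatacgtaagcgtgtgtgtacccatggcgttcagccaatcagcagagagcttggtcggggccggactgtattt
Counted from the start site, the E-box of Max began at position -3 and that of Mnt at -123. Stag3, a meiotic cohesin subunit, had 1 E-box at -170, and Sycp3, a component of the synaptonemal complex, had 2, at -64 and -43. A match describes these letters and does not show that a protein was bound there.

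Values below are log2 intensities, and a probe set's level is compared only with its own level in other lines. Over all probe sets and arrays the median log2 intensity was 4.897, and 4 of the 20 member probe sets had a mean below it: 1422088_at of Mycl, 1433012_at and 1442356_at of Mga and 1418193_at of Mnt. One model with a mean for each line was fitted with limma to all probe sets, and p-values were adjusted by Benjamini-Hochberg over the 45037. Line means differed by the moderated F test at an adjusted p under 0.05 for 18 of the 20 member probe sets, or 90%, against 70.5% of all probe sets. With a span of line means of at least 1 log2 unit as well, 10 of 20 members passed, or 50%, against 24.2% of all probe sets. These 10 belonged to Myc, Mycn, Max, Mga (4 probe sets), Mxd3 and Mxi1 (2 probe sets). The members were chosen with earlier results of these data known, and most lie above the median intensity. These shares and those given later therefore describe the members and do not test the family. The 2 that did not pass the F test were 1433012_at of Mga, with an adjusted p of 0.637, and 1438847_at of Mxd3, with 0.0615 (limma).

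**Figure D1:**
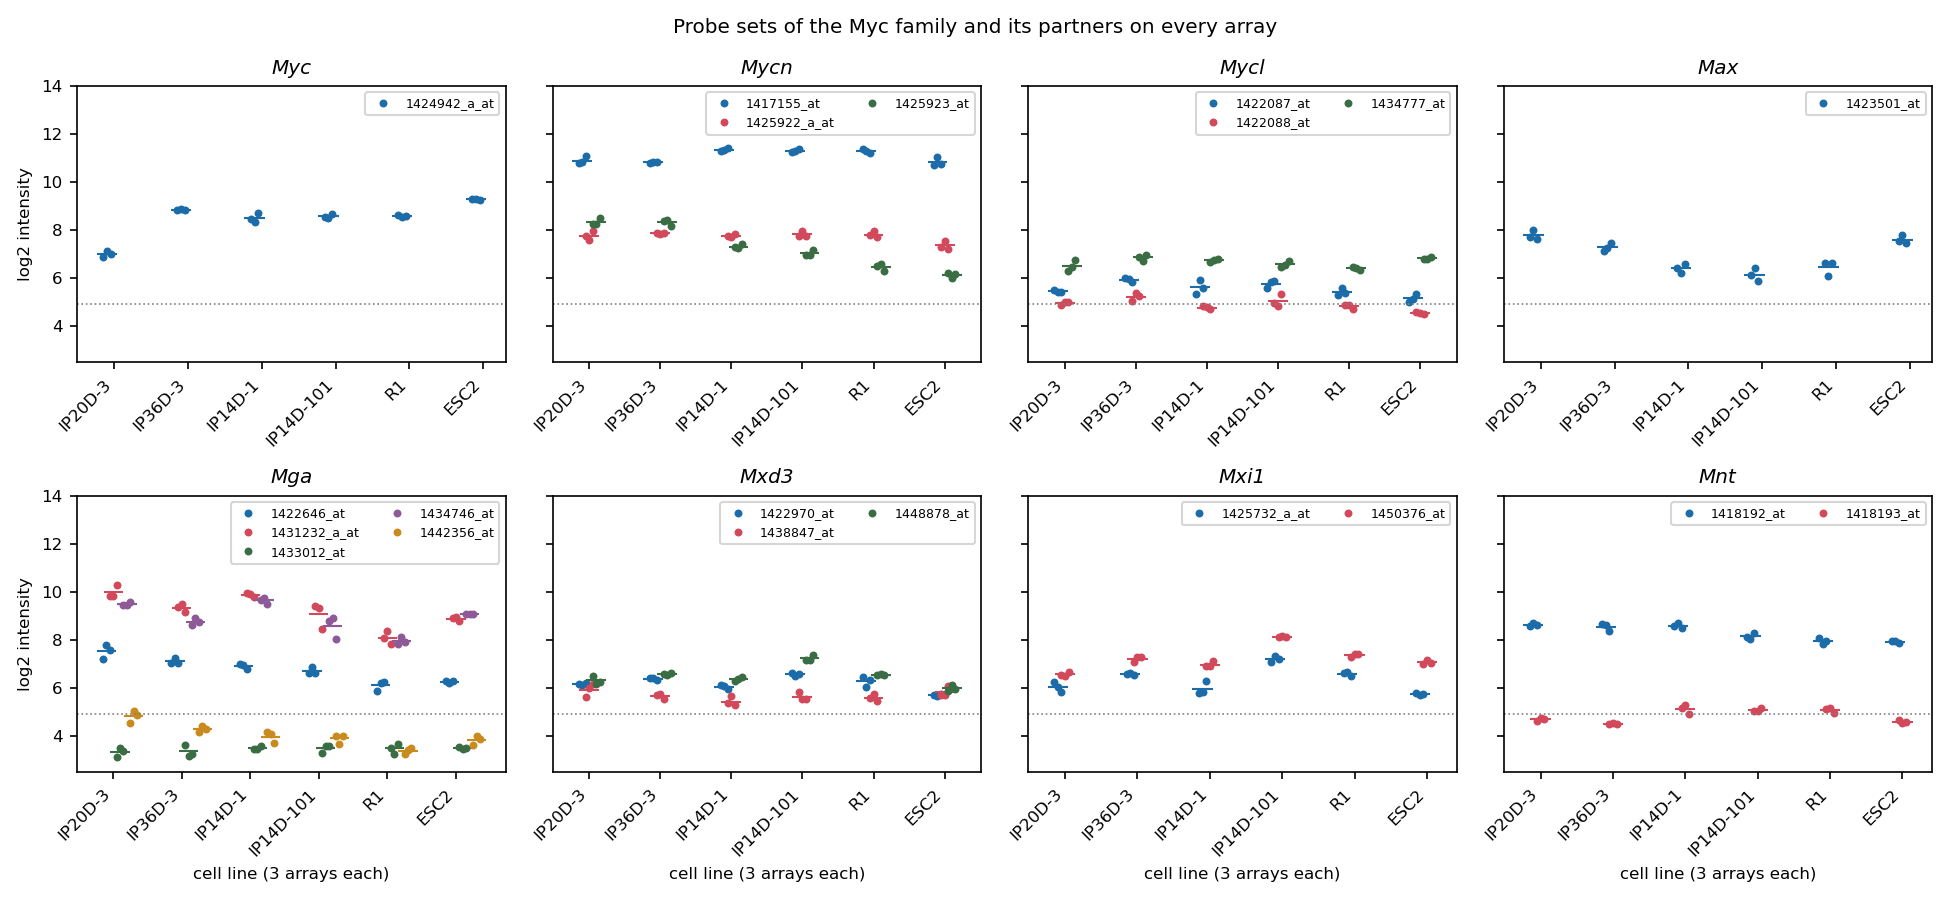
Log2 intensity of the 20 member probe sets on each of the 18 arrays, one panel per gene and one colour per probe set, with the 6 lines along the x axis, short bars at line means and a dotted line at the median of all probe sets, 4.897. Myc sits near 7 in IP20D-3 and between 8.34 and 9.30 in the other 5 lines, and the probe sets of Mycn do not share one pattern.

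Markers of pluripotent cells were well above the median intensity in all 6 lines. Pou5f1, Nanog and Sox2, the core pluripotency factors, had line means of 12.12 to 12.64, 11.24 to 11.81 and 11.58 to 12.17, and the mean of 14 pluripotency markers was highest in IP14D-101 at 11.43 and lowest in ESC2 at 10.67. The actin 3′/5′ signal ratio, a sign of RNA quality, was highest on the ESC2 arrays, at 1.48 to 1.56. It was 1.24 to 1.31 on the arrays of IP20D-3, IP36D-3 and IP14D-1, and 1.12 to 1.17 on those of IP14D-101 and R1. The 5 contrasts with ESC2 share its 3 arrays. The part of this ratio in them and in the other pairs of lines was not tested. IP14D-101 and R1 also differ from ESC2 in strain label, so strain and line cannot be told apart in those contrasts.

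Myc was lowest in IP20D-3. Its probe set (1424942_a_at; gene at chr15:61985341-61990361 of GRCm38.p6) read 6.89, 7.00 and 7.11 on the 3 arrays of IP20D-3. The other iPS lines read 8.83, 8.84 and 8.89 for IP36D-3, 8.34, 8.47 and 8.70 for IP14D-1 and 8.50, 8.52 and 8.68 for IP14D-101. The ES lines read 8.55, 8.58 and 8.63 for R1 and 9.25, 9.28 and 9.30 for ESC2. All 3 IP20D-3 arrays thus lay below each of the other 15, and all 3 ESC2 arrays above each of the rest. Over the whole table, arrays of IP20D-3 and ESC2 did not overlap for 50.1% of probe sets. Myc averaged 7.00 ± 0.11 in IP20D-3 and 9.27 ± 0.03 in ESC2 (SD, n = 3 each), a log2 difference of -2.28 ± 0.09 (SE), which is 4.85-fold lower in IP20D-3 (limma adjusted p = 3.87e-12). It was also lower in IP20D-3 than in IP36D-3, IP14D-1, IP14D-101 and R1, by log2 differences of -1.86, -1.50, -1.57 and -1.59, and all 4 passed an adjusted p under 0.05 with a log2 difference of at least 1, the rule for a call used from here on. IP36D-3, IP14D-1, IP14D-101 and R1 were below ESC2 by smaller differences, -0.42, -0.77, -0.71 and -0.69, each with an adjusted p under 0.05 and none called. From high to low the order was ESC2, IP36D-3, R1, IP14D-101, IP14D-1 and IP20D-3. R1 and IP14D-101 (gap 0.02, limma adjusted p = 0.937) and IP14D-101 and IP14D-1 (gap 0.06, adjusted p = 0.641) did not differ beyond their spread.

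Markers of other cell states moved between the same lines. Of all 18193 genes, 3.38% were called lower in IP20D-3 than in ESC2. Of 9 genes that mark the primed epiblast, the state that follows naive pluripotency, 6 were called lower. The mean of the 9 was 6.78 ± 0.18 in IP20D-3 and 8.34 ± 0.12 in ESC2 (SD, n = 3 each). Of 22 measured fibroblast markers, 8 were called lower in IP20D-3 and none higher, with summed linear intensities of 3374.8 to 3567.9 in IP20D-3 and 4567.9 to 5257.1 in ESC2. Fn1, the brightest of them in IP20D-3, went the other way without a call, at 11.23 in IP20D-3 and 10.23 in ESC2. The mean log2 intensity of these fibroblast markers was 4.74 in IP20D-3, 4.98 in IP36D-3, 6.03 in IP14D-1, 5.26 in IP14D-101, 5.56 in R1 and 5.82 in ESC2. Of 7 trophectoderm markers, genes of the outer lineage of the blastocyst, 4 were called lower in IP20D-3 than in ESC2, with a median difference of -1.01. Over the 6 line means, Myc had a Pearson r of 0.93 with the mean of the primed epiblast markers, 0.61 with that of the fibroblast markers, 0.49 with that of the trophectoderm markers and -0.63 with that of the pluripotency markers. Over the 5 lines without IP20D-3, r was 0.81, 0.03, 0.02 and -0.97 for the same 4 lists. For the primitive endoderm markers, described below, r was 0.12 over the 6 lines and -0.43 over the 5. These r values describe means that share arrays and normalisation, and the part of these markers in the Myc difference was not tested. In RNA from whole cultures, fewer cells with Myc and less Myc RNA per cell cannot be told apart.

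**Figure D2:**
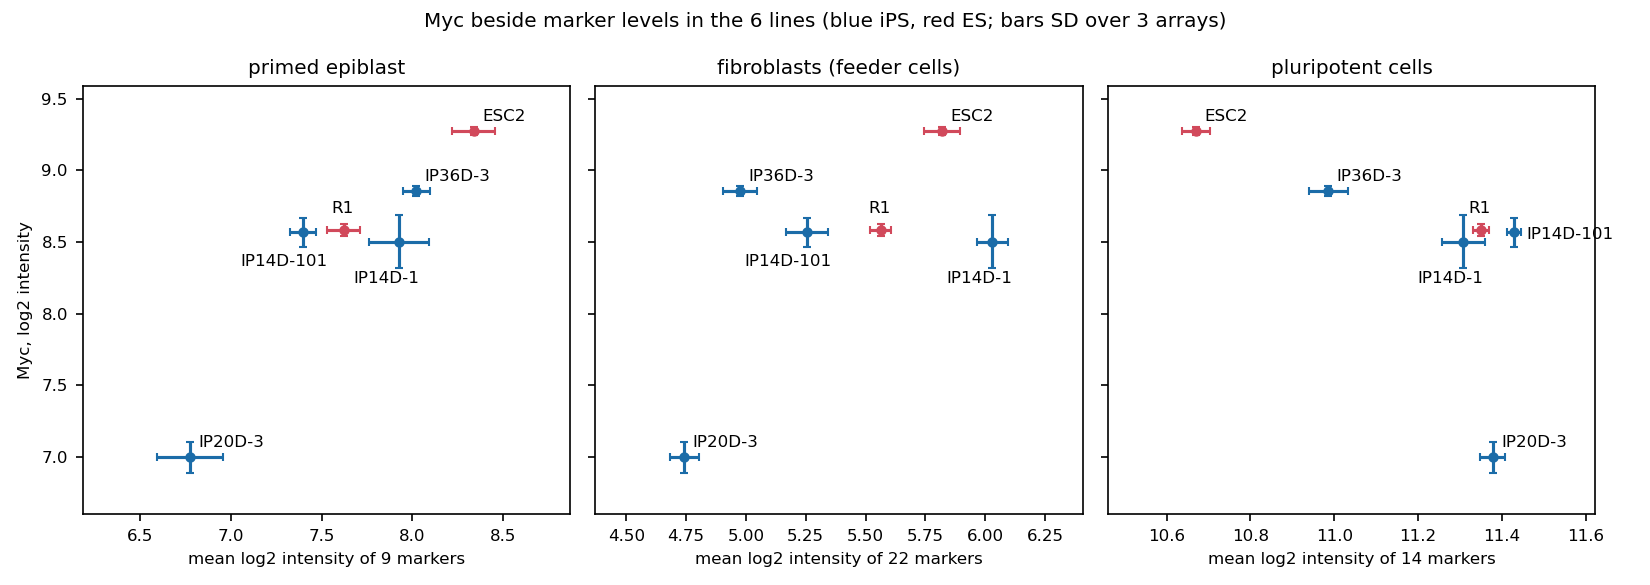
Myc log2 intensity (y axis) against the mean log2 intensity of 9 primed epiblast, 22 fibroblast and 14 pluripotency markers (x axes), one point per line, iPS lines in blue and ES lines in red, with bars of 1 SD over 3 arrays. IP20D-3 is lowest for Myc and for the primed epiblast mean (6.78), and ESC2 is highest for both (9.27 and 8.34).

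Mycn, the family member first found amplified in neuroblastoma, gave 3 different pictures from its 3 probe sets (gene at chr12:12936093-12941836). With 1417155_at the arrays read 10.77, 10.81 and 11.07 for IP20D-3, 10.79, 10.82 and 10.84 for IP36D-3, 11.29, 11.34 and 11.42 for IP14D-1, 11.25, 11.31 and 11.38 for IP14D-101, 11.20, 11.30 and 11.37 for R1, and 10.69, 10.76 and 11.06 for ESC2. The 3 lines IP14D-1, IP14D-101 and R1 lay above all arrays of the other 3. The 18S ribosomal RNA control probe set split the arrays in the same way, with linear intensities of 18.5 to 53.4 in these 3 lines and 82.2 to 326.5 in IP20D-3, IP36D-3 and ESC2, and its part in this difference was not tested. They exceeded ESC2 by 0.52, 0.48 and 0.45, with adjusted p under 0.05 and no call, while IP20D-3 and IP36D-3 differed from ESC2 by 0.05 and -0.02 (limma adjusted p = 0.745 and 0.914). With 1425922_a_at the line means were 7.77 to 7.87 in the other 5 lines and 7.36 in ESC2, and all 5 differences, 0.41 to 0.51, had an adjusted p under 0.05 without being called.

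The probe set 1425923_at of Mycn differed far more. It read 8.23, 8.26 and 8.51 for IP20D-3, 8.15, 8.38 and 8.43 for IP36D-3, 7.24, 7.30 and 7.40 for IP14D-1, 6.97, 6.97 and 7.16 for IP14D-101, 6.28, 6.49 and 6.60 for R1, and 5.99, 6.15 and 6.20 for ESC2. No ES array reached the lowest iPS array. The log2 difference from ESC2 was 2.22 ± 0.11 in IP20D-3 (SE; 4.65-fold, limma adjusted p = 3.48e-11), 2.20 in IP36D-3 and 1.19 in IP14D-1, all called, and 0.92 in IP14D-101 and 0.34 in R1, not called. IP20D-3 and IP36D-3 did not differ beyond their spread (gap 0.01, adjusted p = 0.945), nor did IP14D-1 and IP14D-101 (gap 0.28, adjusted p = 0.0575). The step between IP36D-3 and IP14D-1, 1.01, was called, and was 0.98, 0.95 and 0.97 with the call lost when replicate 1 or 2 of IP36D-3 or replicate 2 of IP14D-1 was left out. This call was also lost with a pseudocount of 16 added to the linear intensities and with repeated quantile normalisation. The other 2 probe sets of Mycn did not show this order of lines.

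Mycl, the third activator, changed little (gene at chr4:122995588-123002490). Line means spanned 5.15 to 5.93 with 1422087_at, 4.54 to 5.22 with 1422088_at and 6.41 to 6.86 with 1434777_at. IP36D-3 had the highest line mean with all 3. The lowest was that of ESC2 with the first 2 and of R1 with the third, and no difference between any 2 lines was called.

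Max, the shared partner, separated the lines into a high and a low set. Its probe set 1423501_at (gene at chr12:76937269-76962323) read 7.62, 7.69 and 8.01 for IP20D-3, 7.12, 7.25 and 7.46 for IP36D-3, 6.19, 6.42 and 6.60 for IP14D-1, 5.88, 6.14 and 6.41 for IP14D-101, 6.09, 6.61 and 6.64 for R1, and 7.45, 7.55 and 7.80 for ESC2. Every array of IP14D-1, IP14D-101 and R1 was below every array of IP20D-3, IP36D-3 and ESC2. The linear intensity of the 18S control, given with Mycn, split the arrays in the same way, and its part in the Max differences was not tested. Max was called lower than in ESC2 in IP14D-101, 6.14 ± 0.26 in IP14D-101 and 7.60 ± 0.18 in ESC2 (SD, n = 3 each), a log2 difference of -1.46 ± 0.17 (SE; 2.75-fold, limma adjusted p = 1.10e-06). It was also called lower in IP14D-1 (-1.20) and in R1 (-1.15). The R1 difference was -0.98 without replicate 2 of R1, and the call was then lost. IP20D-3, where Myc was lowest, differed from ESC2 in Max by 0.18 (limma adjusted p = 0.444), and IP36D-3 by -0.32 (adjusted p = 0.161). IP20D-3 was called higher than IP14D-1 (1.37), IP14D-101 (1.63) and R1 (1.33), and IP36D-3 higher than IP14D-101 (1.14), a call lost at 0.98 when a pseudocount of 16 was added to the linear intensities before log2. The low set crossed both cell types and all 3 strain labels, and among these 3 lines no pair differed at an adjusted p under 0.05.

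Mga (gene at chr2:119872503-119970129) had 3 probe sets above the overall median, and R1 had the lowest line mean with each. With 1431232_a_at the arrays read 9.82, 9.83 and 10.27 for IP20D-3, 9.18, 9.36 and 9.47 for IP36D-3, 9.78, 9.90 and 9.94 for IP14D-1, 8.47, 9.35 and 9.39 for IP14D-101, 7.83, 8.07 and 8.35 for R1, and 8.80, 8.89 and 8.93 for ESC2. All R1 arrays lay below all others, and replicate 3 of IP14D-101 was apart from its 2 companions. IP20D-3 was called higher than ESC2 by 1.10 ± 0.19 (SE; 2.14-fold, limma adjusted p = 1.51e-04), and without replicate 3 of IP20D-3 the difference was 0.95 and the call was lost. IP14D-1 exceeded ESC2 by 1.00, just under the limit, and was not called. IP20D-3, IP14D-1 and IP36D-3 were called higher than R1, by 1.89, 1.79 and 1.25, whereas R1 minus ESC2 was -0.79 and not called.

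The probe set 1434746_at of Mga also put IP14D-1 and IP20D-3 on top, with means of 9.49 ± 0.08 in IP20D-3, 8.76 ± 0.14 in IP36D-3, 9.64 ± 0.13 in IP14D-1, 8.59 ± 0.47 in IP14D-101, 7.96 ± 0.16 in R1 and 9.07 ± 0.01 in ESC2 (SD, n = 3 each). R1 was called lower than ESC2 (-1.11), and IP20D-3 and IP14D-1 were called higher than R1 (1.53 and 1.69). IP14D-1 minus IP14D-101 was 1.06 and called, but 0.79 and not called without replicate 3 of IP14D-101. This call was also lost when limma weighted the arrays by their spread. With 1422646_at the means were 7.52, 7.11, 6.91 and 6.71 for IP20D-3, IP36D-3, IP14D-1 and IP14D-101, and 6.10 and 6.25 in R1 and ESC2, so both ES lines were below all 4 iPS lines. R1 and ESC2 did not differ beyond their spread with it (gap 0.15, limma adjusted p = 0.371). IP20D-3 was called higher than ESC2 with this probe set, by 1.27 (2.42-fold, limma adjusted p = 4.47e-07). It was also called higher than R1 in IP20D-3 (1.42) and IP36D-3 (1.01), and the second call was lost without replicate 1 of R1 (0.88) or replicate 2 of IP36D-3 (0.94). That second call was also lost with a pseudocount of 16 and with repeated quantile normalisation. Of the dim pair, 1433012_at stayed between 3.32 and 3.50, and 1442356_at was called for IP20D-3 minus R1 (1.42) and for no other pair, a call lost at 0.74 with a pseudocount of 16.

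The repressors Mxd3, with 2 of its 3 probe sets, and Mxi1, with both, were highest in IP14D-101. Mxd3, a partner of Max found in dividing cells, has its gene at chr13:55325170-55329900, and its probe set 1448878_at read 6.17, 6.26 and 6.49 for IP20D-3, 6.55, 6.59 and 6.63 for IP36D-3, 6.29, 6.35 and 6.46 for IP14D-1, 7.14, 7.16 and 7.37 for IP14D-101, 6.55, 6.55 and 6.56 for R1, and 5.87, 5.94 and 6.12 for ESC2. IP14D-101 lay above all other arrays, and ESC2 below all others. IP14D-101 minus ESC2 was 1.25 ± 0.09 (SE; 2.37-fold, limma adjusted p = 8.67e-09) and was the only called pair for Mxd3. With 1422970_at the same pair gave 0.88, not called, and with 1438847_at it gave -0.20 (limma adjusted p = 0.264).

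Mxi1, a repressor named for its interaction with Max, has its gene at chr19:53310128-53373293. With 1450376_at it read 6.47, 6.55 and 6.64 for IP20D-3, 7.07, 7.28 and 7.30 for IP36D-3, 6.90, 6.90 and 7.11 for IP14D-1, 8.11, 8.11 and 8.18 for IP14D-101, 7.29, 7.40 and 7.42 for R1, and 6.98, 7.05 and 7.16 for ESC2. The 3 IP14D-101 arrays were above all others and the 3 IP20D-3 arrays below all others. With 1425732_a_at the means were 6.04, 6.58, 5.97 and 7.20 for IP20D-3, IP36D-3, IP14D-1 and IP14D-101, and 6.59 and 5.73 in R1 and ESC2, so IP14D-101 was again on top. IP14D-101 minus ESC2 was called with both probe sets, 1.07 with 1450376_at (limma adjusted p = 2.32e-08) and 1.47 with 1425732_a_at (limma adjusted p = 2.35e-08). The first became 0.98, and lost its call, when each line was centred on its median, since the median of all probe sets was itself 0.10 higher in IP14D-101 than in ESC2. That call was lost with a pseudocount of 16 too. IP20D-3 and IP14D-1 were called lower than IP14D-101 with both probe sets, and the call for IP20D-3 with 1425732_a_at was lost with a pseudocount of 16 (-0.995).

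In IP14D-101, 4.67% of all genes were called higher than in ESC2. Of 12 markers of primitive endoderm, the extraembryonic lineage that arises beside the epiblast, 9 were called higher there. Their summed linear intensities were 5690.4 to 6077.8 in IP14D-101 and 2825.3 to 2957.7 in ESC2, and 2300.0 to 3384.7 over the other 4 lines. Gata6 and Dab2, genes of this marker list, return below among the lists and the genes most like Mxi1. The part of these markers in the Mxd3 and Mxi1 differences was not tested. IP14D-101 and ESC2 also carry different strain labels, so strain and line cannot be told apart in these differences.

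Mnt, the most widely expressed repressor of the network, has its gene at chr11:74830806-74845725. Its probe set 1418192_at read 8.58, 8.61 and 8.71 for IP20D-3, 8.35, 8.61 and 8.67 for IP36D-3, 8.51, 8.59 and 8.69 for IP14D-1, 8.04, 8.12 and 8.30 for IP14D-101, 7.81, 7.95 and 8.06 for R1, and 7.86, 7.93 and 7.97 for ESC2. The 3 lines IP20D-3, IP36D-3 and IP14D-1 were above every array of the rest, and IP14D-101 overlapped R1. The 3 exceeded ESC2 by 0.71, 0.62 and 0.68, with adjusted p under 0.05 and no call. The dim 1418193_at gave another order, with IP14D-1, IP14D-101 and R1 on top at 5.07 to 5.11. The ribosomal RNA control probe set, given with Mycn, set the same 3 lines apart from the rest, and its part in this order was not tested.

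Across the contrasts with ESC2, members were called in 4 of 20 tests for IP20D-3, where 7.67% of all probe sets were called. The counts were 1 for IP36D-3 (3.58% of all), 2 for IP14D-1 (3.26%), 4 for IP14D-101 (9.32%) and 2 for R1 (9.01%). In all, 9 of 20 probe sets were called in at least 1 of the 5, and 11 in none, where 17.8% of all probe sets were called in at least 1. The median log2 difference over the 20 was 0.32 in IP20D-3, 0.46 in IP36D-3, 0.38 in IP14D-1, 0.46 in IP14D-101 and 0.14 in R1, against 0.00, 0.03, 0.04, 0.10 and 0.10 over all probe sets. Over the 10 pairs of lines without ESC2, 27 of 200 tests were called, or 13.5%, against 5.24% of all probe sets. These pairs reuse the same arrays and probe sets of 1 gene measure the same RNA, so the counts are not independent. By pair, with the share of all probe sets in brackets, members were called 1 time for IP20D-3 minus IP36D-3 (3.42%), 3 times for IP20D-3 minus IP14D-1 (4.43%), 5 times for IP20D-3 minus IP14D-101 (9.41%) and 7 times for IP20D-3 minus R1 (11.7%). For IP36D-3 they were called 1 time against IP14D-1 (3.14%), 2 times against IP14D-101 (4.13%) and 3 times against R1 (6.07%). For IP14D-1 the counts were 3 against IP14D-101 (3.98%) and 2 against R1 (4.29%). Between IP14D-101 and R1 no member was called by limma (1.86%).

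**Figure D3:**
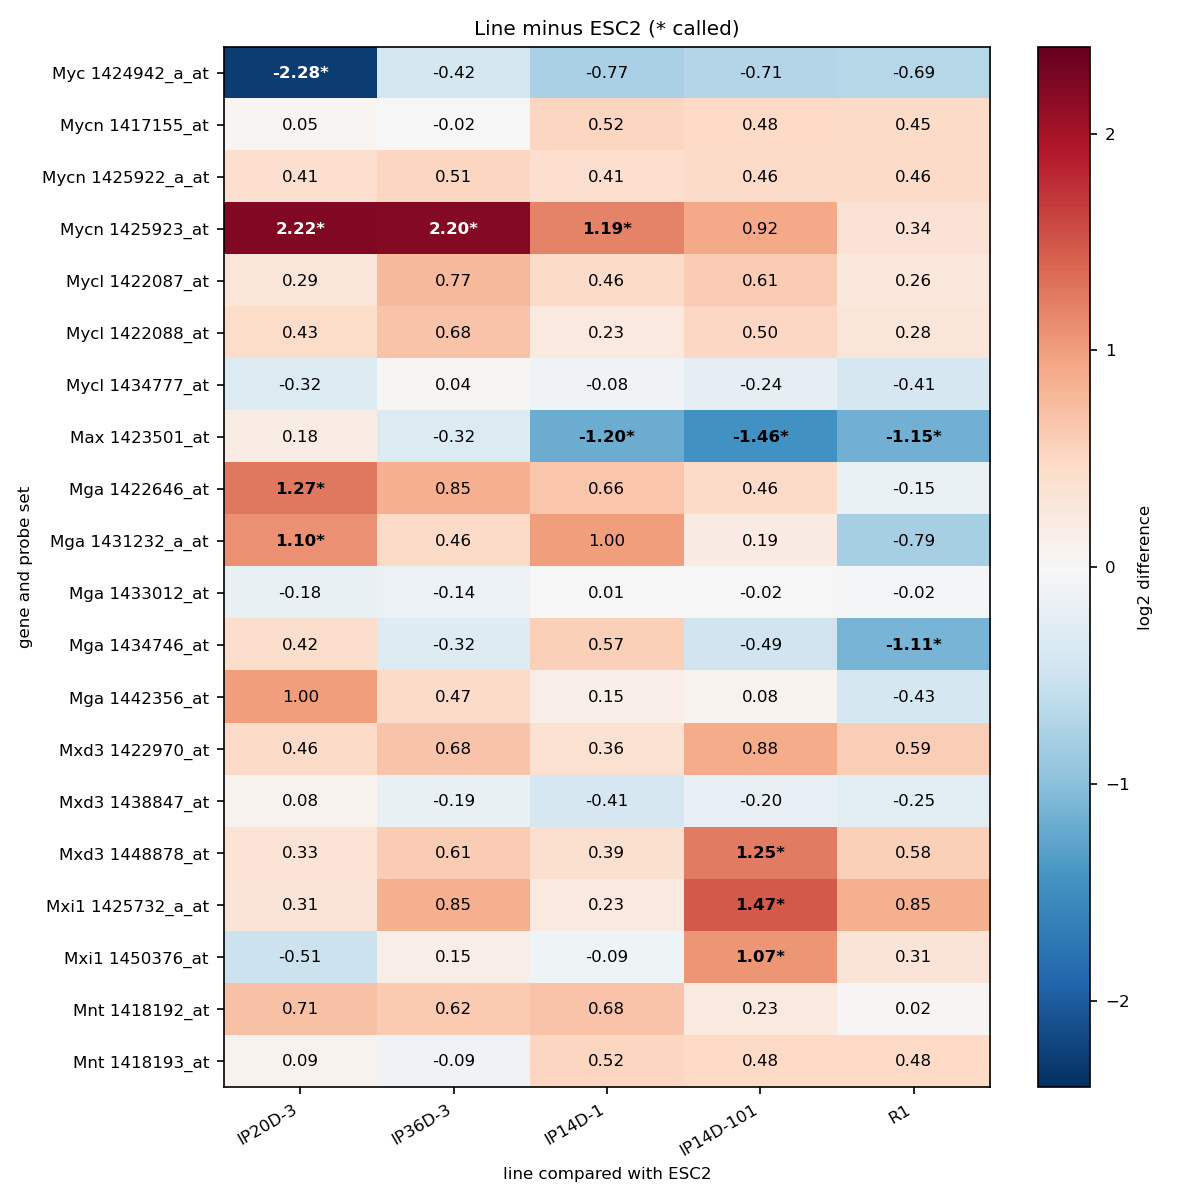
Log2 difference from ESC2 of each member probe set in IP20D-3, IP36D-3, IP14D-1, IP14D-101 and R1, coloured by size and sign, with an asterisk on each call. The strongest cells are Myc in IP20D-3 (-2.28) and the Mycn probe set 1425923_at, at 2.22 in IP20D-3 and 2.20 in IP36D-3.

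Cell type was tested on the 6 line means, 4 iPS against 2 ES. No member and no probe set of the 45037 was called by limma, so percent called was 0. At an unadjusted p under 0.05 there were 4 member probe sets of 20, against 3.22% of all probe sets. These were 1425923_at of Mycn (1.46 higher in iPS lines, 7.75 ± 0.68 in 4 iPS lines and 6.29 ± 0.24 in 2 ES lines, SD over lines), 1422646_at of Mga (0.89), 1431232_a_at of Mga (1.08) and 1418192_at of Mnt (0.55), each with a limma adjusted p of 1. Line means of iPS and ES lines did not overlap for 6 of 20 members, against 9.25% of all probe sets. Myc itself averaged 8.23 ± 0.84 in iPS lines and 8.93 ± 0.49 in ES lines (SD over lines), which overlap, and IP20D-3 accounted for the low end of the iPS range.

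Genes around the family were taken from 11 lists, with 1 probe set per gene, the one of highest mean, and calls from the same kind of fit over 18193 genes. Over the 5 contrasts with ESC2, 44 of the 158 measured list genes were called at least once, or 27.8%, against 18.5% of all genes. Of all genes, 5.22% were called higher and 3.38% lower for IP20D-3, 1.91% and 1.47% for IP36D-3, 2.08% and 1.36% for IP14D-1, 4.67% and 4.06% for IP14D-101, and 4.38% and 3.75% for R1. Counts per list ran from 0 of 15 coactivators and chromatin partners of Myc, among them Trrap and Kat5, to 10 of 13 genes described as repressed by Myc. The 5 other genes of the network, Mxd1, Mxd4, Mlx, Mlxip and Mlxipl, gave 1 call, Mlxipl, a glucose-responsive activator, in IP14D-101 (1.05).

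**Figure D4:**
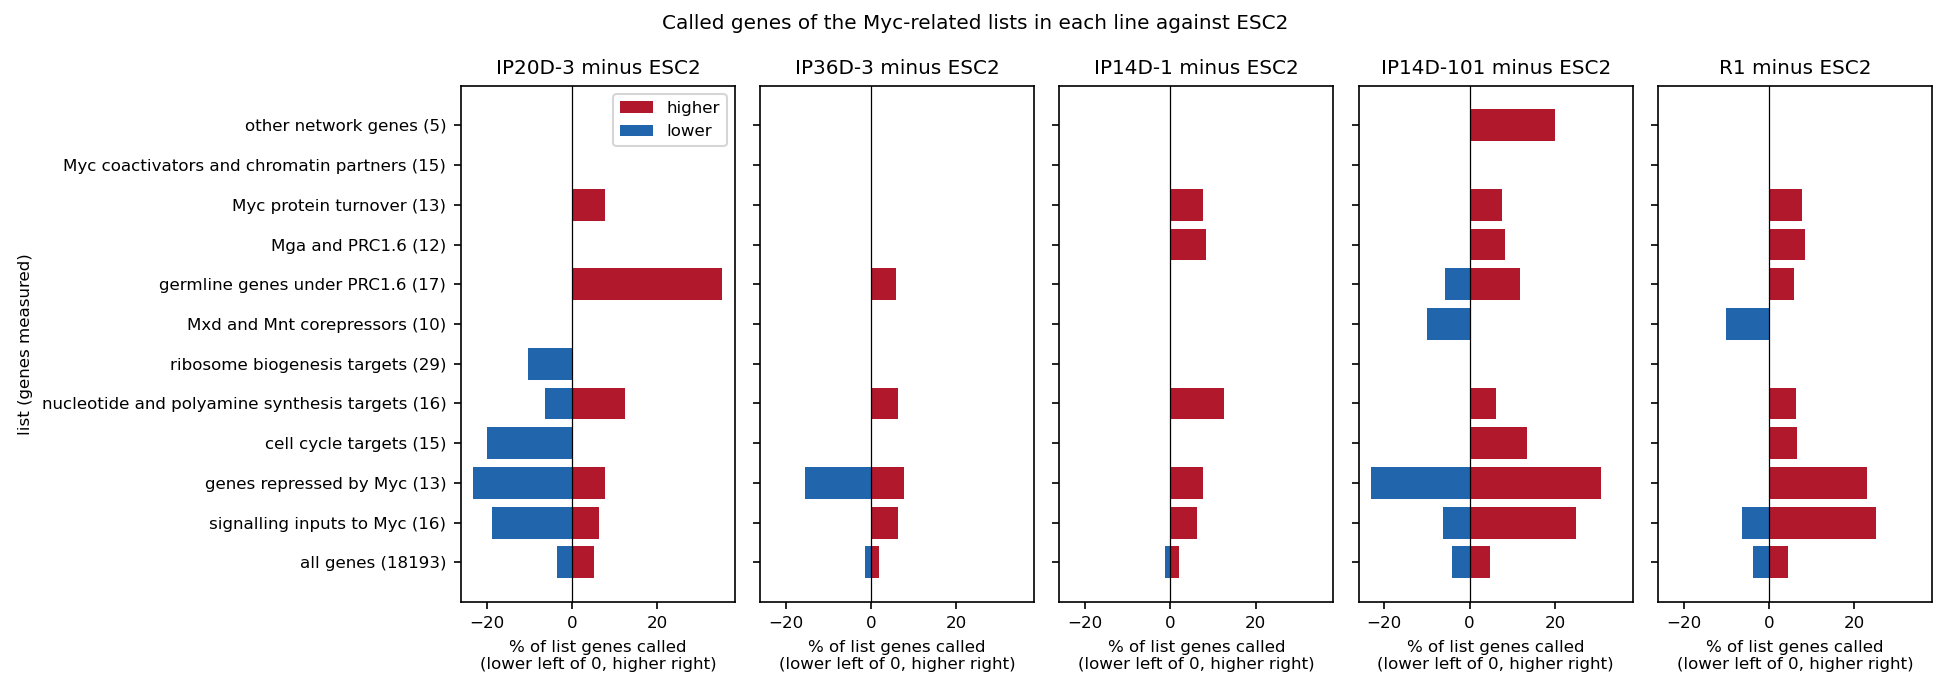
Percent of measured genes called higher (red, right of 0) and lower (blue, left of 0) than in ESC2 for the 11 lists and, at the bottom, all 18193 genes, one panel per line. Germline genes stand out in IP20D-3 with 6 of 17 higher, and ribosome biogenesis genes are called only in IP20D-3, 3 of 29, all lower.

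Among 29 measured ribosome biogenesis genes, a class that Myc is known to drive, 3 were called lower and none higher in IP20D-3 than in ESC2, where 3.38% of all genes were called lower. Ddx21, an RNA helicase of the nucleolus, averaged 9.25 ± 0.10 in IP20D-3 and 10.59 ± 0.13 in ESC2 (SD, n = 3 each), a log2 difference of -1.34 (limma adjusted p = 6.36e-10). Rrs1, which takes part in assembly of the large ribosomal subunit, differed by -1.23, and Polr1b, a subunit of RNA polymerase I, by -1.11. The median over the list was -0.21 in IP20D-3, against 0.01 for all genes. In the other 4 contrasts none of the 29 was called by limma, with list medians of 0.04 in IP36D-3, -0.16 in IP14D-1, -0.17 in IP14D-101 and -0.03 in R1, against 0.05, 0.06, 0.15 and 0.15 for all genes.

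Cell cycle targets split by line. In IP20D-3, 3 of 15 were called lower than in ESC2 and none higher, where 3.38% of all genes were called lower. The 3 were the D-type cyclins Ccnd2 (-1.58) and Ccnd1 (-1.08) and the ubiquitin ligase scaffold Cul1 (-1.30). In IP14D-101, 2 of 15 were called higher, the S-phase activators E2f1 (2.05) and E2f2 (1.19), where 4.67% of all genes were called higher. E2f1 was also called in R1 (1.14), and no member of the list was called in IP36D-3 or IP14D-1.

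Of 16 measured genes of nucleotide and polyamine synthesis, 5 were called in some line, in both directions, where 18.5% of all genes were called. Cad, which starts pyrimidine synthesis, was higher than in ESC2 in IP14D-101 (1.94), R1 (1.93) and IP14D-1 (1.29). In IP20D-3 the mitochondrial folate enzymes Mthfd2 (1.54) and Shmt2 (1.39) rose, where 5.22% of all genes were called higher, and Prps2, which makes the ribose donor for nucleotides, fell (-1.67).

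The list of genes described as repressed by Myc also moved both ways. In IP20D-3, 1 of 13 was called higher and 3 lower, where 5.22% of all genes were called higher and 3.38% lower. Cdkn1b, an inhibitor of cyclin-dependent kinases, averaged 7.87 ± 0.15 in IP20D-3 and 6.06 ± 0.08 in ESC2 (SD, n = 3 each; difference 1.80), and was also called higher in IP14D-1 (1.27), IP36D-3 (1.21) and IP14D-101 (1.09). Cdkn2b, another such inhibitor, was called lower in IP20D-3 (-2.19), IP36D-3 (-1.52) and IP14D-101 (-1.09). In IP14D-101, 4 of 13 were called higher and 3 lower, led by Gata6 at 3.58 and Id2, an inhibitor of differentiation factors, at -1.63. Of all genes, 4.67% were called higher and 4.06% lower there. Gata6 is also one of the primitive endoderm markers given above.

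Signalling genes upstream of Myc gave 9 of 16 called in some line. Against ESC2, 1 was called higher and 3 lower in IP20D-3, 1 higher and 0 lower in each of IP36D-3 and IP14D-1, and 4 higher and 1 lower in each of IP14D-101 and R1. In IP20D-3, Fgf4, an FGF ligand made by pluripotent cells, was higher (1.08), and Dusp6, a phosphatase that damps ERK, was lower there (-1.15) and in IP14D-101 (-1.01). The receptor Lifr was lower in R1 (-1.01). In IP20D-3, Lef1, a nuclear effector of Wnt and also one of the primed epiblast markers, was lower (-1.70). Etv4, a transcriptional effector of FGF signalling, was higher in IP14D-101 (1.80), R1 (1.33) and IP14D-1 (1.05). Spry4, a feedback inhibitor of the same pathway, was higher in IP14D-101 (1.59), IP36D-3 (1.45) and R1 (1.16), and the receptor Fgfr1 was higher in R1 (1.34). Among 13 genes that control Myc protein turnover, only Btrc, a subunit of a ubiquitin ligase, was called, higher in IP20D-3 (1.14), IP14D-1 (1.15), IP14D-101 (1.37) and R1 (1.13). Among 10 measured corepressor genes of Mxd and Mnt, only Arid4b, a subunit of the Sin3 complex, was called, lower in IP14D-101 (-1.12) and R1 (-1.56).

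Of the 12 measured genes of the PRC1.6 list other than Mga and Max, among them Pcgf6, L3mbtl2 and E2f6, only Ring1, a ubiquitin ligase of Polycomb complexes, was called. It was higher than in ESC2 in IP14D-101 (1.52), R1 (1.26) and IP14D-1 (1.20), the same 3 lines in which Max was called lower. The ribosomal RNA control probe set, given with Mycn, was also lower on all arrays of these 3 lines than on those of ESC2. The part of this control in the Ring1 differences, and a link between Ring1 and Max, were not tested.

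Germline genes that PRC1.6 keeps silent in mouse ES cells were called higher most often in IP20D-3, 6 of 17 against 5.22% of all genes, with a list median of 0.62 against 0.01. Smc1b, a meiotic cohesin subunit, averaged 5.74 ± 0.09 in IP20D-3 and 3.87 ± 0.28 in ESC2 (SD, n = 3 each; difference 1.87, limma adjusted p = 1.39e-08). Stag3, whose promoter is shown above, averaged 7.29 ± 0.22 in IP20D-3 and 5.46 ± 0.16 in ESC2 (difference 1.84). Stag3 was called higher in IP14D-101 (1.82), R1 (1.48) and IP36D-3 (1.15) too. Sycp3 averaged 8.49 ± 0.29 in IP20D-3 and 6.93 ± 0.24 in ESC2 (difference 1.56), and Sohlh2, a germ cell transcription factor, rose by 1.51. Sycp1, another synaptonemal complex protein, and Stk31, a kinase of germ cells, differed by 1.23 and 1.14. In the other lines the list had 1 call in IP36D-3, 0 in IP14D-1, 3 in IP14D-101 (Stag3 and Tex11 higher, Meioc lower) and 1 in R1. In IP20D-3 neither Max (0.18) nor any of the 12 listed PRC1.6 genes was called against ESC2, and Mga was called higher with 2 of its 5 probe sets. Of the germline genes measured and with a promoter window, 4 of 10 with an E-box were called higher in IP20D-3 (median difference 0.65) and 2 of 6 without one (median 0.42). A link of the germline differences to Mga, Max, PRC1.6 or the E-box was not tested. The part of the primed epiblast markers and of the actin ratio, both given above, in these differences was not tested either.

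Genes whose 6 line means were most like a member's were taken from about the same pool for each, 3369 genes for Myc, with a mean of at least 6 and a span of at least 1. With 6 points, high r values are reached by many genes, and these are descriptions of shared arrays with no p. Most like Myc were Tardbp (r = 0.986), Mxra8 (0.979), Ftsj3 (0.979), Sall2 (0.978) and Ebna1bp2 (0.973), and Sall2 is one of the primed epiblast markers. Most opposite to Myc were Ly6g6e (-0.989), Baz2b (-0.988), Plekhm3, Dgkh and Sft2d2. For 1425923_at of Mycn the most like were Nemp2 (0.987), Rnf113a2, Cdk5rap1, Cradd and Acot13, and the most opposite Thg1l (-0.983), Zfp982, Lasp1, Stk4 and Spink1. For Max the most like were Pfn2 (0.990), Elk4, Clk4, Recql and Trmt13. Smad7 (-0.994), Smarcd1 (-0.994), Raver1, Smarca4 and Rarg ran most opposite to Max, and Smarcd1 and Smarca4 are subunits of the BAF chromatin remodelling complex.

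For 1431232_a_at of Mga the most like were Mt1 (0.990), Dpp4, Slc1a5, Klf9 and Atad2, and the most opposite Lsm12 (-0.975), F2r, Slc15a4, Lysmd2 and Hacd2. For 1448878_at of Mxd3 they were Rnd2 (0.984), Rab3d, Acads, Plk5 and Pald1, with Sclt1 (-0.983), Lpp, Zfp946, Map4k5 and Rragd most opposite. For 1450376_at of Mxi1 they were St6galnac6 (0.987), Dab2 (0.981), Irf2bp2, Hhex and Aurkb, with Atp11a (-0.984), Diaph2, Zgrf1, Dnajc7 and Prkab2 most opposite. Dab2, an endocytic adaptor, is also one of the primitive endoderm markers.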

How the data were processed

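The deposited values are linear probe set intensities that the authors made with RMA, as the design text and the submitters' processing notes record (a method that corrects background, applies quantile normalisation and summarises probes), with no version named in the sources used here. They were taken to log2 with no pseudocount, and 64 control probe sets were left out. Array medians were 29.1 to 30.5 on the linear scale; the number of arrays limits the precision. Of the rest, 34945 had 1 symbol, 932 several and 9160 none in the platform annotation. limma 3.58.1 (R 4.3.3) fitted 1 mean per line to all 18 arrays (12 residual degrees of freedom), and iPS minus ES to 6 line means. On simulated data, 98.5% of 200 probe sets changed by 1.5 log2 units in IP20D-3 minus ESC2 were recovered. The simulated arrays had no other line differences, and no change near the limit of 1 log2 unit was tried. The members and lists were chosen with earlier results of these data known. Named genes were all members, up to 4 called genes per list by size of difference, and the 5 most like and most opposite genes per member with a span of at least 1; other called genes, and the correlations of Myc with marker means, were added after their values were seen. Alternatives covered the replicate block, filters, pseudocount, normalisation, centring, variance model, line subsets and each array left out.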

Additional observations from a re-analysis of the deposited data

How the results depend on the processing

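Under the settings that keep all 20 member probe sets, 1 count of called members changed by more than 1.5 times: R1 minus ESC2 had 2 calls and 1 without replicate 2 of R1. With each array left out in turn, member counts ranged from 10 to 10 for differences among the 6 lines, 3 to 5 for IP20D-3, 1 to 1 for IP36D-3, 2 to 3 for IP14D-1, 4 to 4 for IP14D-101 and 1 to 2 for R1 against ESC2, 0 to 0 for iPS minus ES and 25 to 29 for the other pairs. List genes called ranged from 41 to 46. Of 1079 recomputations of the 40 called member differences, 1056 kept the call, 23 lost it and 0 reversed. The cause of the losses was not tested. Many of these settings, such as leaving out an array of a line outside the pair, cannot change the log2 difference itself. The count of kept calls is therefore not a measure of how firm the calls are. Without IP20D-3 or without ESC2, alternatives added after the data were seen, 8 and 9 member probe sets still passed the F test and the span, against 10. Whether the replicate numbers pair the arrays was not settled. Of 45 same-numbered pairs, 12 had a correlation of deviations over 0.1 (range -0.287 to 0.295), and 9 of 18 arrays correlated best with their own number. The 15 pairs of replicate 2 were all positive, 0.042 to 0.243. With the replicate block the F test and span gave 10 member probe sets, the contrasts with ESC2 4, 1, 2, 4 and 2, the other pairs 27, iPS minus ES 0 and the lists 44. Counted over 1 probe set per gene, 8 in place of 20, the F test and span gave 5 of 8 genes, IP20D-3 minus ESC2 2, IP36D-3 0, IP14D-1 1, IP14D-101 3, R1 1 and the other pairs 13. For the 4 member probe sets with means below the median of all probe sets, weak signal limits the differences that can be seen.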
